A study of Mus musculus with 42 samples.

Results

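The cytosolic ribosomal protein genes encode the proteins of the small (40S) and large (60S) subunits of the ribosome that translates nuclear messenger RNA. They were taken from the expression table by gene symbol, as every Rps or Rpl gene with a number, together with Rpsa, Rplp0, Rplp1 and Rplp2, and without symbols marked as pseudogenes or the ribosomal protein S6 kinases. This gave 85 of the 19151 genes of the table. Of these, 81 passed the filter on low values and were tested: 31 of the small subunit, 46 of the large subunit, and 4 paralogs or gene copies named for a ribosomal protein gene (Rpl7l1, Rpl22l1, Rps4l and Rps27l). Rpl3l, Rpl10l, Rpl32l and Rpl39l lay below the filter. Rpl32l, whose symbol does not mark it so, is annotated as a processed pseudogene.

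Ribosomal proteins are made in near-equal amounts and assembled with ribosomal RNA in the nucleolus, so their messengers tend to be regulated as a group. Most of these messengers begin with a run of pyrimidines at the cap, the terminal oligopyrimidine (TOP) tract, through which growth signalling by mTOR controls their translation. Ribosome production is known to rise in cells that grow and divide, a state that microglia, the resident macrophages of the brain, enter when they proliferate around amyloid deposits.

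The study took microglia from 2 genotypes, WT and APP/PS1, at ages of 4, 6 and 12 months, sorted them into proliferating (Ki67+) and non-proliferating (Ki67-) cells and sequenced their RNA. APP/PS1 mice carry mutant APP and presenilin transgenes, develop amyloid deposits with age, and were kept on a C57BL/6 background. WT mice were littermates without the transgenes, and the mice were males. The promoter that drives the transgenes is not given in the sources used here. The labels give 400 sorted cells per library, and the study's results section gives up to 400. The cells were gated on CD11b and CD45, fixed in paraformaldehyde and stained for the nuclear protein Ki67. CD11b and CD45 are also carried by other macrophages. At 4 months there were 5 WT Ki67+, 5 WT Ki67-, 4 APP/PS1 Ki67+ and 4 APP/PS1 Ki67- libraries. At 6 months there were 2, 3, 2 and 2, and at 12 months 4, 3, 4 and 4, in the same order. The labels do not say which libraries came from separate mice, so p-values measure only the spread between libraries within groups, which may be technical. For each gene this spread was estimated over all groups together, not from the groups compared alone. The groups were not equally spread: the median SD over all genes tested ran from 0.032 (WT Ki67- at 12 months) to 0.37 (both APP/PS1 Ki67+ at 4 months and APP/PS1 Ki67- at 12 months).

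The deposited values, on a log2-type scale, ran from 3.07 to 18.35 over the table, with a median of 7.4. A difference of 1 on this scale is read as a log2 difference, though the transform compresses low values. No read counts can be recovered from them, so the depth of each library is unknown. The values are not divided by gene length, and levels of different genes are therefore not compared. Ribosomal protein genes have many near-identical copies in the genome, and how reads were shared among them could not be checked.

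Several features of the libraries touch the results. The mean of 8 microglial markers lay between 12.92 and 13.4 in 11 groups and at 11.86 in WT Ki67+ microglia at 6 months, a group of 2 libraries. The mean of 6 astrocyte markers was 9.12 to 11.28 in the Ki67+ groups and 7.9 to 8.58 in the Ki67- groups, and that of 6 oligodendrocyte markers reached 11.44 in WT and 12.61 in APP/PS1 Ki67+ microglia at 6 months. Mki67, the transcript of the sorted protein, did not follow the sort: its Ki67+ minus Ki67- difference was 1.26 (adjusted p = 0.0222) in APP/PS1 at 4 months, -1.09 (adjusted p = 0.0362) in WT at 12 months, and not called in the other comparisons. Some libraries were nearly the same. The 3 WT Ki67- libraries at 12 months differed from each other by an SD of 0.038 to 0.089 over the genes tested, and WT Ki67- replicates 1 and 2 at 4 months by 0.035. Over the 59 pairs of libraries within groups the median was 0.52 and the next closest pair stood at 0.17. Without counts it could not be checked whether these are separate libraries. They also enter the spread that all comparisons share. For comparisons that rest on them and had ribosomal protein genes called, the count is therefore also given with these libraries averaged to 1. Markers and lists of other genes were not refitted in this way.

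The ribosomal protein genes reached their highest levels in APP/PS1 microglia at 12 months, in both sorted populations. The level of each library was summarised as its median over the 81 genes tested. In APP/PS1 Ki67+ microglia at 12 months the 4 libraries had medians of 11.42, 11.44, 11.68 and 11.35, and in WT Ki67+ microglia of that age 10.68, 10.72, 10.46 and 11.08. All APP/PS1 libraries lay above all WT libraries. In the Ki67- sort the APP/PS1 libraries had medians of 11.08, 12.07, 11.79 and 11.72 and the WT libraries 10.99 each. Replicate 1 of the APP/PS1 group was close to the WT libraries, and the other 3 were well above them.

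At 4 months the same medians averaged 10.34 ± 0.05 (SD, n = 5) in WT and 10.37 ± 0.35 (SD, n = 4) in APP/PS1 Ki67+ microglia, and 10.53 ± 0.05 (SD, n = 5) and 10.53 ± 0.22 (SD, n = 4) in Ki67- microglia. The lowest group was WT Ki67+ at 6 months (9.90 ± 0.16, SD, n = 2), and APP/PS1 Ki67+ at that age stood at 10.81 ± 0.22 (SD, n = 2). WT and APP/PS1 Ki67- microglia at 6 months had 10.46 ± 0.38 (SD, n = 3) and 10.44 ± 0.03 (SD, n = 2). At 12 months the groups averaged 10.73 ± 0.26 (SD, n = 4) in WT Ki67+, 11.47 ± 0.14 (SD, n = 4) in APP/PS1 Ki67+, 10.99 ± 0.00 (SD, n = 3) in WT Ki67- and 11.67 ± 0.42 (SD, n = 4) in APP/PS1 Ki67- microglia. Both APP/PS1 groups at 12 months were above every other group, and they differed from each other by less than the spread of the Ki67- libraries. Over all genes tested, group medians stayed between 7.86 and 7.98. In such bulk samples, fewer cells of a type and less RNA per cell cannot be told apart.

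**Figure D1:**
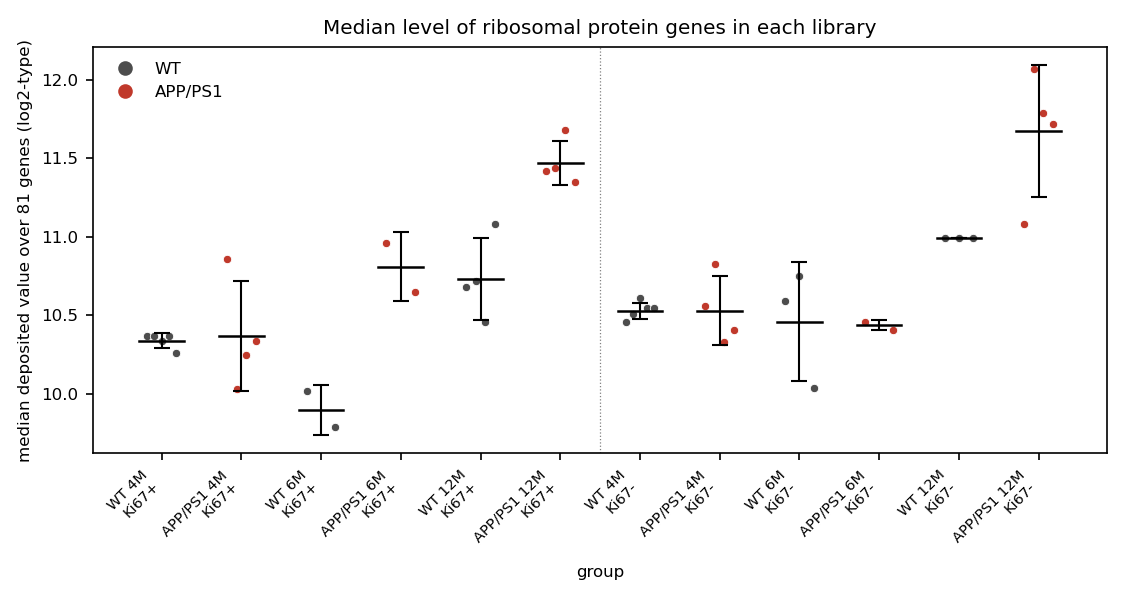
Median level over the 81 ribosomal protein genes tested (y axis, log2-type deposited values) in each of the 42 libraries, by group (x axis). Points are libraries (grey WT, red APP/PS1), and lines mark the group mean ± SD. The 4 APP/PS1 Ki67+ libraries at 12 months lie between 11.35 and 11.68, above all WT Ki67+ libraries.

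Of all 85 genes, 53 had their highest group mean in APP/PS1 Ki67- and 21 in APP/PS1 Ki67+ microglia at 12 months, and 52 had their lowest in WT Ki67+ microglia at 6 months. Across the 12 group means, the genes tended to move together. The median correlation between pairs of genes was 0.77, and 41 genes had a correlation of at least 0.9 with the median of the 81. These groups share normalization and removed surrogate variables, and the correlations are given as a description. The genes with correlations under 0.5 were 8, and 3 of the 4 paralogs were among them: Rps4l (-0.34), Rpl7l1 (0.24) and Rpl22l1 (0.28). The other 5 were Rps12 (0.04), Rpl28 (0.29), Rpl5 (0.36), Rpl15 (0.43) and Rps25 (0.46).

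**Figure D2:**
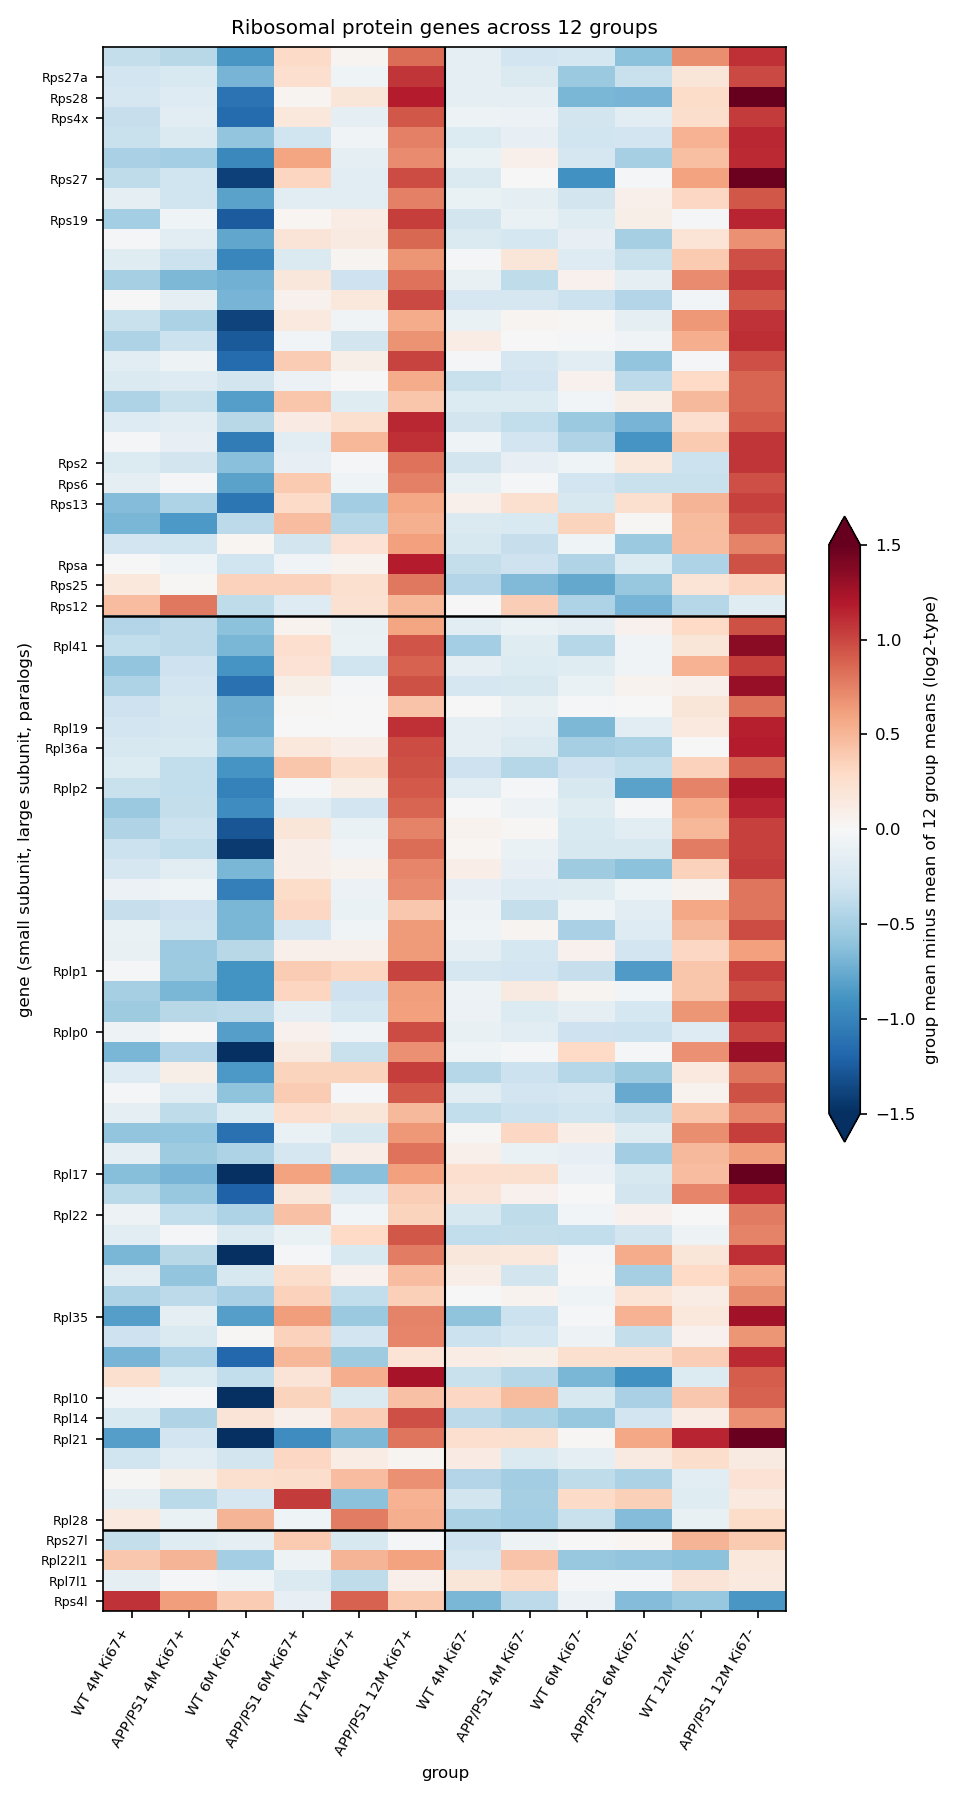
Group mean minus the mean of the 12 group means (colour, log2 scale) for 77 of the genes tested (rows, some of them named, small subunit, large subunit and paralogs, each ordered by correlation with the common median) in the 12 groups (columns). Most rows are highest in the APP/PS1 columns at 12 months and lowest in WT Ki67+ at 6 months, while Rps4l is highest in WT Ki67+ at 4 months.

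The first comparison asked how APP/PS1 differed from WT microglia at each age. At 12 months ribosomal protein genes were higher in APP/PS1, and those that passed the test all went in that direction. In Ki67+ microglia 41 of 81 were called higher and 0 lower (limma, FDR 0.05), against 4.43% of all genes tested called higher and 5.34% lower. The 41 were 19 of 31 small subunit genes, 22 of 46 large subunit genes and 0 of 4 paralogs. The median difference over the 81 genes was 0.82, and over all genes tested it was -0.02. For 55 genes every APP/PS1 library lay above every WT library, which was so for 15.6% of all genes. With the median of each library subtracted, all genes called higher and lower numbered 933 and 774 in place of 661 and 796.

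Among small subunit genes, Rpsa, which encodes the 40S protein also known as the laminin receptor precursor, had the lowest p. Rpsa was at 11.58, 11.64, 11.37 and 11.92 in the WT Ki67+ libraries at 12 months and at 12.7, 12.64, 12.84 and 12.84 in the APP/PS1 libraries. The groups did not overlap, and the difference was 1.13 ± 0.20 (SE, adjusted p = 0.00107). Rps27a, which is made as a fusion with ubiquitin, was at 11.14, 11.08, 10.83 and 11.55 in WT and at 12.36, 12.35, 12.46 and 11.99 in APP/PS1, a difference of 1.14 ± 0.24 (SE, adjusted p = 0.00451). Rps4x, the X-linked S4 gene, differed by 1.06 (adjusted p = 0.00568) and Rps13 by 1.11 (adjusted p = 0.00494). In both genes all 4 APP/PS1 libraries exceeded the highest WT library. Rps6, the 40S protein phosphorylated by the S6 kinases downstream of mTOR, was just within the threshold, with a difference of 0.83 ± 0.27 (SE, adjusted p = 0.0482).

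Among large subunit genes, Rpl35, at the exit of the peptide tunnel, was at 9.84, 9.81, 9.55 and 10.43 in the WT Ki67+ libraries at 12 months and at 11.08, 11.12, 11.08 and 11.56 in the APP/PS1 libraries. Its groups did not overlap, and the difference was 1.3 ± 0.28 (SE, adjusted p = 0.00473). Rpl21 differed by 1.47 ± 0.37 (SE, adjusted p = 0.0121), the largest difference among the 81. Of the stalk genes, whose products recruit elongation factors, Rplp0 forms the base. Rplp0 was at 11.98, 11.97, 11.8 and 12.32 in WT and at 13.16, 12.79, 13.31 and 12.96 in APP/PS1, with no overlap and a difference of 1.04 ± 0.21 (SE, adjusted p = 0.00349). The acidic stalk genes Rplp1 (0.69, adjusted p = 0.106) and Rplp2 (0.82, adjusted p = 0.0763) were not called, nor was Rpl10 (0.65, adjusted p = 0.114), which joins the 60S subunit late in its maturation.

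The count in Ki67+ microglia depended on the WT libraries: without WT Ki67+ replicate 3 at 12 months, the lowest of its group, 24 genes were called. Astrocyte markers moved with this comparison in the other direction, with 2 of 6 called lower in APP/PS1 and a mean level of 11.28 in WT (range over libraries 11.1 to 11.5) and 10.63 in APP/PS1 (10.48 to 10.74). The lowest value of the whole table was 3.07, so these levels do not show whether a marker was absent. Microglial markers stood at 12.92 and 13, with 0 of 8 called higher and 1 lower. The mean of 6 peripheral immune markers was 7.97 in WT (7.88 to 8.06) and 7.31 in APP/PS1 (6.95 to 7.62), without overlap, and none of the 5 tested was called. The part of these markers in the result was not tested.

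In Ki67- microglia at 12 months 26 of 81 genes were called higher in APP/PS1 and 0 lower, against 8.71% of all genes called higher and 7.72% lower. They were 11 small subunit and 15 large subunit genes, and the median difference over the 81 was 0.59. In 42 genes every APP/PS1 library lay above every WT library, which held for 23.1% of all genes. Rps2, at the entrance of the messenger channel of the 40S subunit, had the lowest p. Rps2 was at 11.29, 11.32 and 11.37 in the WT libraries and at 12.61, 12.88, 12.85 and 12.55 in the APP/PS1 libraries. The APP/PS1 values stood clear of the WT values, with a difference of 1.4 ± 0.21 (SE, adjusted p = 7.33e-05). Rpsa, at 11.1, 11.12 and 11.14 in WT and at 12.4, 12.89, 12.51 and 12.33 in APP/PS1, differed by 1.42 ± 0.22 (SE, adjusted p = 7.5e-05). Rplp0 differed by 1.19 (adjusted p = 0.000913), Rps19, mutated in Diamond-Blackfan anaemia, by 1.17 (adjusted p = 0.0022) and Rps6 by 1.3 (adjusted p = 0.00273).

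The WT Ki67- group at 12 months is the group of 3 near-identical libraries. Averaged to 1 library, Rps2 (1.4, adjusted p = 0.0178) and Rpsa (1.42, adjusted p = 0.0179) were the 2 genes still called. Without any 1 of these 3 libraries, 16 or 17 genes were called. Leaving out APP/PS1 Ki67- replicate 1 gave 40, and leaving out replicate 2 gave 17. In this sort 2 of 6 astrocyte markers were called lower in APP/PS1, with a mean of 8.51 in WT (8.44 to 8.57 over libraries) and 7.94 in APP/PS1 (7.63 to 8.37). Of the oligodendrocyte markers 2 of 6 were called higher, with a mean of 8.88 in WT (8.85 to 8.9) and 9.4 in APP/PS1 (9.06 to 10.21). Peripheral immune markers had a mean of 7.96 in WT (7.92 to 7.99) and 7.42 in APP/PS1 (7.06 to 7.62), with 1 of 5 called lower. The part of these markers was not tested. Over both sorts, 22 of the 81 genes were called higher in APP/PS1 at 12 months in both, 23 in one of them and 36 in neither. These numbers are from the fit without averaging of the near-identical libraries. The same overlap was not counted over all genes.

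At 4 months no ribosomal protein gene was called between the genotypes. In Ki67+ microglia the median difference was 0.02, with 1 of 81 genes at an unadjusted p under 0.05, and 0.0268% of all genes were called higher and 0% lower. In Ki67- microglia it was -0.01, again with 1 gene at an unadjusted p under 0.05, and 0% of all genes were called in either direction. Rpsa at 4 months was at 11.61, 11.3, 11.82, 11.78 and 11.43 in WT Ki67+ and at 11.87, 11.21, 11.42 and 11.54 in APP/PS1 Ki67+ microglia. The APP/PS1 values spanned the WT values.

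At 6 months the genotypes differed in Ki67+ microglia. Here 26 of 81 genes were called higher in APP/PS1 and 0 lower, with 6.95% of all genes called higher and 2.92% lower, and the median difference over the 81 was 0.89. Rpl10 was at 9.29 and 9.09 in the WT libraries and at 11.54 and 11.16 in the APP/PS1 libraries. Those WT values were the lowest of Rpl10 in any library, and the difference was 2.16 ± 0.38 (SE, adjusted p = 0.000521). Rpl17, which lines the exit of the peptide tunnel, was at 8.57 and 8.55 in WT and at 10.81 and 10.53 in APP/PS1, a difference of 2.11 ± 0.39 (SE, adjusted p = 0.000947). Rpl13a (1.68, adjusted p = 0.00298), Rpl6 (1.66, adjusted p = 0.00408) and Rpl35a (1.54, adjusted p = 0.00622) were also called.

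This comparison rests on 2 libraries against 2. Without WT Ki67+ replicate 2 at 6 months 11 genes were called, and without APP/PS1 Ki67+ replicate 1 only 3. Microglial markers moved with it: 7 of 8 were called higher in APP/PS1, with a median difference of 1.45 and a mean level of 13.32 (13.27 to 13.38 over libraries) against 11.86 (11.86 to 11.87). Oligodendrocyte markers had 0 of 6 called, at 12.61 (12.1 to 13.13) against 11.44 (11.17 to 11.71). The part of either was not tested. Ki67- microglia at 6 months had 0 of 81 genes called and a median of -0.03, with 1 gene at an unadjusted p under 0.05, and 0.0469% of all genes were called higher and 0.0134% lower.

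The next comparison followed age within each genotype. From 4 to 12 months ribosomal protein genes rose in APP/PS1 microglia of both sorts. In APP/PS1 Ki67+ microglia 62 of 81 were called higher at 12 months and 0 lower, where 2.8% of all genes were called higher and 2.61% lower. The median difference was 1.06, and 27 of 31 small subunit and 35 of 46 large subunit genes were called. In 69 genes all 12 month libraries lay above all 4 month libraries, as in 8.16% of all genes. With library medians subtracted, all genes called higher and lower were 593 and 412 in place of 417 and 389.

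The 60S protein gene Rpl14 had values of 10.29, 9.9, 9.97 and 10.35 in the 4 month APP/PS1 Ki67+ libraries and 11.58, 11.63, 11.68 and 11.31 in the 12 month ones. All its 12 month values lay above the 4 month values, and the difference was 1.42 ± 0.21 (SE, adjusted p = 0.000299). Rpsa rose by 1.25 (adjusted p = 0.000594) and Rpl19 by 1.35 (adjusted p = 0.00123). The 3 stalk genes were all called: Rplp1 rose by 1.55 (adjusted p = 0.00123), Rplp2 by 1.28 (adjusted p = 0.0112) and Rplp0 by 0.98 (adjusted p = 0.00692). Rps6 was not called (0.78, adjusted p = 0.0859).

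In APP/PS1 Ki67- microglia 63 of 81 genes were called higher at 12 than at 4 months and 0 lower, against 2.6% of all genes called higher and 1.51% lower. The median difference was 1.12, and the called genes were 27 of 31 of the small and 36 of 46 of the large subunit. All 12 month libraries exceeded all 4 month libraries in 59 genes, and in 6.43% of all genes. Rpl41, the shortest ribosomal protein, was at 11.27, 11.23, 11.19 and 11.08 at 4 months and at 12.49, 13.15, 12.59 and 12.67 at 12 months, a difference of 1.53 ± 0.24 (SE, adjusted p = 0.000312). Rps28, a small protein of the messenger exit channel, was at 9.8, 10.29, 9.47 and 10.01 and then at 10.98, 11.98, 11.59 and 11.63, a difference of 1.65 ± 0.26 (SE, adjusted p = 0.000323). Neither gene overlapped between the ages. Rpsa rose by 1.26 (adjusted p = 0.000312), Rps2 by 1.19 (adjusted p = 0.00049) and Rpl36a by 1.38 (adjusted p = 0.000983).

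With 1 library left out, these counts ranged from 52 to 68 in Ki67+ and from 50 to 71 in Ki67- microglia. Over both sorts, 55 genes were called in both, 15 in one and 11 in neither: Rpl4, Rpl5, Rpl10, Rpl21, Rpl27, Rpl28, Rps12 and the paralogs Rpl7l1, Rpl22l1, Rps4l and Rps27l. This overlap between the sorts was not counted over all genes. Rps12 had the lowest difference of the 81 in both sorts, -0.3 (adjusted p = 0.626) in Ki67+ and -0.55 (adjusted p = 0.395) in Ki67- microglia. Rps12 was at 9.25, 8.8, 9.56 and 9.05 in APP/PS1 Ki67+ microglia at 4 months and at 8.7, 8.8, 8.97 and 8.97 at 12 months, so the ages overlapped. Microglial markers were not called higher over this interval in either sort, and 2 of 8 in Ki67+ and 1 of 8 in Ki67- microglia were called lower. Of 6 astrocyte markers, 1 was called higher and 1 lower in Ki67+ and 1 lower in Ki67- microglia. Of 6 neuronal markers 2 were called higher in Ki67+ microglia, where their mean went from 7.61 (7.25 to 8.23 over libraries) to 8.04 (7.83 to 8.19). The part of these markers was not tested.

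In WT microglia few or no ribosomal protein genes were called over the same interval in the fit used here, though some other settings called more. In WT Ki67+ microglia 0 of 81 genes were called from 4 to 12 months and 7 had an unadjusted p under 0.05, with 0.496% of all genes called in each direction. The median difference was 0.24, and 74 of the 81 differences were positive. In 6 genes all 12 month libraries lay above all 4 month libraries, as in 6.61% of all genes. Rplp0 was there at 12.15, 11.95, 11.91, 12.07 and 11.85 at 4 months and at 11.98, 11.97, 11.8 and 12.32 at 12 months, and the ages overlapped (difference 0.03, adjusted p = 0.967). In WT Ki67- microglia 4 genes were called higher and 0 lower, against 5.61% and 6.6% of all genes, among them Rps27l (0.81), Rps14 (0.73) and Rpl24 (0.79). The median there was 0.44, 74 of the 81 differences were positive, and 29 had an unadjusted p under 0.05. In 63 genes all 12 month libraries, which are the near-identical ones, lay above all 4 month libraries, as in 27% of all genes. Averaging the near-identical libraries left 0 called, and so did leaving out any 1 of the 3 WT Ki67- libraries at 12 months. Without WT Ki67- replicates 1, 2, 4 or 5 at 4 months, 1 or 2 were called. Other settings called more genes higher. With all 30 residual degrees of freedom used, 27 were called in WT Ki67- and 3 in WT Ki67+ microglia. In WT Ki67- microglia 19 were called when only the ages compared were fitted, and 11 with library medians subtracted. A variance prior with trend and robust options gave 10 there.

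**Figure D3:**
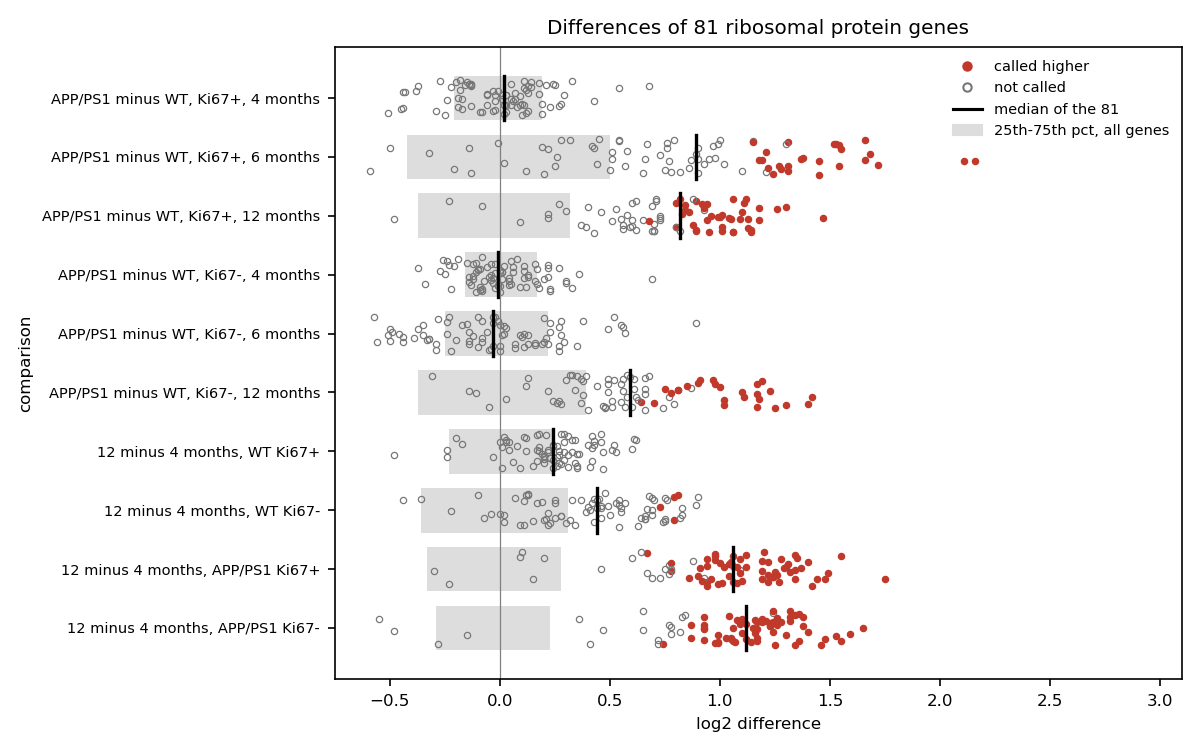
Differences (x axis, log2 scale) of the 81 genes tested in the 6 APP/PS1 minus WT comparisons and the 4 comparisons of 12 minus 4 months (y axis). Each point is a gene, filled red where called higher, black bars mark the median of the 81 genes, and grey boxes span the 25th to 75th percentile of all genes tested. The medians are 1.06 and 1.12 for age in APP/PS1, and 0.24 and 0.44 in WT microglia.

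Whether the age difference itself was larger in APP/PS1 than in WT was tested as an interaction, added after the rise in APP/PS1 had been seen. It shares its libraries with the comparisons above. In Ki67+ microglia 3 of 81 genes were called higher and 0 lower, with 0.637% of all genes called higher and 0.711% lower, and 49 of the 81 had an unadjusted p under 0.05. Rpsa was among the 3 genes called (1.21 ± 0.28, SE, adjusted p = 0.0282). For the other 78 genes the difference in rise between the genotypes did not pass this test. The median interaction was 0.82. Of 6 astrocyte markers 1 was called lower in it (median -0.8), and its part was not tested. Without APP/PS1 Ki67+ replicate 1 at 4 months 7 genes were called, and without WT Ki67+ replicate 4 at 12 months 5. A count of 1 resulted without each of these 8 Ki67+ libraries: WT replicate 4 and APP/PS1 replicates 3 and 4 at 4 months, and WT replicates 1, 2 and 3 and APP/PS1 replicates 1 and 2 at 12 months.

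In Ki67- microglia 4 genes were called higher in this interaction and 0 lower, with 3.41% of all genes called higher and 2.86% lower, and 30 of the 81 had an unadjusted p under 0.05. These were Rpsa (1.36 ± 0.29, SE, adjusted p = 0.00522), Rps2 (1.23 ± 0.28, SE, adjusted p = 0.00975), Rplp0 (1.24 ± 0.31, SE, adjusted p = 0.0159) and Rpl36a (1.25 ± 0.35, SE, adjusted p = 0.0303). Rpsa in WT Ki67- microglia was at 11.14, 11.18, 11.41, 11.11 and 11.26 at 4 months and at 11.1, 11.12 and 11.14 at 12 months, whereas in APP/PS1 it went from 11.27, 11.26, 11.29 and 11.27 to 12.4, 12.89, 12.51 and 12.33. The WT ages overlapped and the APP/PS1 ages did not. With near-identical libraries averaged, 0 genes were called, and without APP/PS1 Ki67- replicate 1 at 12 months 15 were. The median interaction was 0.6. The share called (4.94%) was near that of all genes. Of 6 astrocyte markers 3 were called lower in this interaction (median -1.22), and their part was not tested.

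The 6 month libraries lie between these ages. In APP/PS1 Ki67- microglia 0 genes were called from 4 to 6 months (median -0.06, 5 at an unadjusted p under 0.05, 0.114% of all genes called higher and 0.0671% lower). From 6 to 12 months 27 were called higher and 0 lower (median 1.17), against 0.463% and 0.168% of all genes. The lowest p belonged to Rps28, at 9.32 in both 6 month libraries, with a difference of 2.23 ± 0.32 (SE, adjusted p = 0.00201), followed by Rpl7a (1.66, adjusted p = 0.00283). Without either 6 month library 1 or 3 genes were called, and without APP/PS1 Ki67- replicate 1 at 12 months 52. In APP/PS1 Ki67+ microglia 6 genes were called higher from 4 to 6 months (median 0.4, 6.47% of all genes called higher and 7.11% lower), led by Rps15 (1.33, adjusted p = 0.00836). A further step to 12 months had 19 called higher (median 0.65, 5.71% of all genes called higher and 5.49% lower), led by Rpsa (1.22, adjusted p = 0.00168). Without an APP/PS1 Ki67+ library of 6 months these counts were 0 or 2 for the earlier step and 3 or 2 for the later one. For the earlier step, leaving out APP/PS1 Ki67+ replicate 1 or 2 at 4 months gave 12 or 2. Other cell markers moved with both steps. From 4 to 6 months 6 of 6 oligodendrocyte markers were called higher (median 3.22), and 6 of 6 astrocyte (median -1.68) and 3 of 6 neuronal markers (median -1.17) lower. From 6 to 12 months 6 of 6 oligodendrocyte markers were called lower (median -3.56) and 2 of 6 astrocyte markers higher (median 0.68). Their part was not tested.

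In WT Ki67+ microglia 17 genes were called lower from 4 to 6 months and 0 higher (median -0.44), where 16.3% of all genes were called lower and 9.76% higher. From 6 to 12 months 30 were called higher and 0 lower (median 0.64), against 14.4% and 8.4%. Rpl10 was the first of both lists, with -1.77 (adjusted p = 0.000213) and then 1.61 (adjusted p = 0.000794). Its values were 10.8, 10.82, 11.05, 10.95 and 11.21 in the 4 month libraries, 9.29 and 9.09 in those of 6 months, and 10.79, 10.72, 10.61 and 11.07 in those of 12 months, so only the 6 month libraries stood apart. Those are the 2 libraries with the low microglial marker level of 11.86. From 4 to 6 months 8 of 8 microglial, 5 of 6 astrocyte and 4 of 6 neuronal markers were called lower and 5 of 6 oligodendrocyte markers higher. From 6 to 12 months 7 of 8 microglial, 5 of 6 astrocyte and 3 of 6 neuronal markers were called higher and 6 of 6 oligodendrocyte markers lower. The part of these markers was not tested. Leaving out WT Ki67+ replicate 1 or 2 at 6 months gave 5 or 1 genes for the fall and 15 or 7 for the rise. The fall was called in 10 genes without replicate 4 at 4 months, and the rise in 17 without replicate 4 at 12 months. In WT Ki67- microglia 0 genes were called from 4 to 6 months (3 at an unadjusted p under 0.05, 0.0671% of all genes in each direction) and 7 higher from 6 to 12 months, with 4.86% of all genes called higher and 5.26% lower. Rps27 led these 7 (1.51, adjusted p = 0.0079). None of the 7 was called with the near-identical libraries averaged, 1 or 2 were called without 1 of the 3 WT Ki67- libraries at 12 months, and 3 without WT Ki67- replicate 3 at 6 months. Over this step 2 of 6 oligodendrocyte markers were called lower (median -0.96), and their part was not tested.

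Between the Ki67+ and Ki67- sorts the median difference over the 81 genes was negative except in APP/PS1 at 6 months, where 2 libraries were compared with 2. In WT microglia 4 of 81 genes were called higher and 9 lower in Ki67+ at 4 months, against 19.3% and 14.5% of all genes. At 6 months 3 and 22 were called (17.8% and 19%), and at 12 months 4 and 18 (26.2% and 20.1%). In APP/PS1 microglia the numbers were 3 and 4 at 4 months (12.3% and 9.24%), 2 and 0 at 6 months (5.21% and 2.6%), and 1 and 3 at 12 months (10.6% and 7.24%). The medians over the 81 genes were -0.15, -0.51 and -0.29 in WT and -0.1, 0.35 and -0.21 in APP/PS1 at 4, 6 and 12 months. The share called higher was below that of all genes in all 6 comparisons, and the share called lower was above it in WT at 6 months (27.2% against 19%) and at 12 months (22.2% against 20.1%). In WT at 6 months 16 of the 81 differences were positive, and in 37 genes every Ki67+ library lay below every Ki67- library, as in 31.5% of all genes. In APP/PS1 at 6 months 71 of 81 differences were positive, and in 51 genes every Ki67+ library lay above, as in 31.2% of all genes. Markers moved with both: in WT 7 of 8 microglial markers were called lower in Ki67+ (median -1.4) and 3 of 6 oligodendrocyte markers higher (median 1.15), and in APP/PS1 6 of 6 oligodendrocyte markers were called higher (median 3.75). Astrocyte markers were called higher in Ki67+ in 6 of 6 genes at 4 and 12 months in both genotypes. Their part was not tested. With library medians subtracted, all genes called higher and lower became 2477 and 2781 (from 2876 and 2159) in WT at 4 months, 1648 and 1824 (from 1833 and 1378) in APP/PS1 at 4 months, and 3365 and 3651 (from 3905 and 2995) in WT at 12 months.

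Rps4l and Rpl17 differed between the sorts in most comparisons. Rps4l (chr6:148354656-148355598, plus strand), annotated as a transcribed processed pseudogene of the S4 family, was called higher in Ki67+ microglia in 4 of 6 comparisons. In WT at 4 months Rps4l was at 9.25, 8.99, 8.97, 9.47 and 8.79 in Ki67+ and at 7.46, 7.43, 7.16, 7.13 and 7.48 in Ki67- libraries, a difference of 1.77 ± 0.31 (SE, adjusted p = 8.85e-05). In WT at 12 months it was at 8.88, 8.54, 9.28 and 8.89 in Ki67+ and at 7.52, 7.46 and 7.39 in Ki67- libraries, and in APP/PS1 at 12 months at 8.43, 8.89, 8.3 and 8.03 and at 7.23, 6.56, 6.93 and 7.87. Every Ki67+ library was above every Ki67- library in these 3 comparisons. The differences at 12 months were 1.44 (adjusted p = 0.00253) and 1.27 (adjusted p = 0.0113), and in APP/PS1 at 4 months 1.02 (adjusted p = 0.0339). With the near-identical WT Ki67- libraries averaged, Rps4l was still called in WT at 4 months (1.79, adjusted p = 0.000171) but not in WT at 12 months. Astrocyte markers were also higher in the Ki67+ groups, and their part was not tested.

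Rpl17 was called lower in Ki67+ microglia in 5 of 6 comparisons. In WT at 4 months Rpl17 was at 9.58, 9.39, 9.19, 9.09 and 9.85 in Ki67+ and at 10.3, 10.31, 10.26, 10.42 and 10.24 in Ki67- libraries, without overlap and with a difference of -0.89 ± 0.25 (SE, adjusted p = 0.00737). In APP/PS1 at 12 months it was at 10.57, 10.66, 10.93 and 10.57 in Ki67+ and at 11.25, 11.78, 11.73 and 12.05 in Ki67- libraries, a difference of -1.02 (adjusted p = 0.0117). The other called values were -0.94 in APP/PS1 at 4 months and -1.41 and -1.1 in WT at 6 and 12 months. Rpl21 was called lower in WT at each age (-1.08, -1.83 and -1.82 at 4, 6 and 12 months), and Rps13 likewise (-0.73, -0.85 and -1.04). Rps25, a 40S protein needed by some internal ribosome entry sites, was called higher in WT at 4 and 6 months (0.6 and 1.12) and in APP/PS1 at 4 months (0.69), and Rpl28 in WT at 4, 6 and 12 months (0.64, 0.85 and 0.88). With the near-identical WT Ki67- libraries averaged, 9 genes in place of 13 were called in WT at 4 months, and at 12 months 2 in place of 22: Rpl21 (-1.82, adjusted p = 0.0247) and Rps13 (-1.04, adjusted p = 0.049).

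Counts in the smaller groups moved when a library was left out. In WT at 6 months 14 genes were called without WT Ki67+ replicate 2. In APP/PS1 at 6 months leaving out any 1 of the 4 libraries left 0 or 1 of Rpl9 (1.13, adjusted p = 0.0423) and Rplp1 (1.23, adjusted p = 0.0499). In APP/PS1 at 4 months 2 to 4 genes were called without Ki67- replicate 1, 2 or 3 or Ki67+ replicate 3 or 4.

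The interaction of genotype with Ki67 state asked whether the sorts differed by genotype. No gene was called at 4 months (0 of 81 at an unadjusted p under 0.05, 0% of all genes called) or at 12 months (1 at an unadjusted p under 0.05, 3.55% of all genes called higher and 4.46% lower, or 757 and 641 genes in place of 530 and 665 with library medians subtracted). At 6 months 3 genes were called higher, against 2.33% of all genes called higher and 0.537% lower: Rpl10 (2.39 ± 0.51, SE, adjusted p = 0.0105), Rpl17 (2.26 ± 0.53, SE, adjusted p = 0.0193) and Rpl13a (2.00 ± 0.48, SE, adjusted p = 0.0213). Rpl10 in Ki67- microglia of that age was at 10.56, 11.53 and 10.22 in WT and at 10.48 and 10.59 in APP/PS1, so the genotypes overlapped there while the Ki67+ libraries did not. The share of ribosomal protein genes called (3.7%) was near that of all genes. In the same interaction 5 of 8 microglial (median 1.47) and 2 of 6 oligodendrocyte markers (median 2.37) were called higher, and their part was not tested. This count rests on few libraries: it was 0 without APP/PS1 Ki67+ replicate 1, 1 without WT Ki67+ replicate 2 or APP/PS1 Ki67- replicate 1, 6 without WT Ki67+ replicate 1, and 11 without WT Ki67- replicate 3.

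The 4 paralogs tested were compared with the genes they are named for. None of them was called between the genotypes at 12 months in either sort, or from 4 to 12 months in APP/PS1. Rps27, a zinc finger protein of the 40S subunit, was at 11.14, 10.98, 11.09 and 11.62 in WT Ki67+ and at 12.28, 12.3, 12.57 and 12.2 in APP/PS1 Ki67+ microglia at 12 months (1.13 ± 0.31, SE, adjusted p = 0.0207). Rps27l, its paralog and a target of p53, was at 9.14, 9.07, 9.16 and 9.38 and at 9.27, 9.51, 9.3 and 9.54 in the same libraries (0.22 ± 0.23, SE, adjusted p = 0.581). The Rps27 groups stood apart and the Rps27l groups overlapped. The difference between the paired genes was not tested. From 4 to 12 months in APP/PS1, Rps27 rose by 1.27 in Ki67+ (adjusted p = 0.0144) and 1.48 in Ki67- microglia (adjusted p = 0.00443), and Rps27l had 0.15 and 0.47 (adjusted p = 0.757 and 0.292).

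Rpl7 rose over that interval by 0.94 in Ki67+ (adjusted p = 0.0159) and 0.93 in Ki67- microglia (adjusted p = 0.0178), and Rpl7l1 had 0.1 and -0.15. Rps4x rose by 1.09 (adjusted p = 0.00601) and 1.14 (adjusted p = 0.00387), and Rps4l had -0.23 and -0.48. Rpl22 was the exception among the parent genes of the tested paralogs. Its difference was 0.69 in Ki67+ (adjusted p = 0.16) and 1.17 in Ki67- microglia (adjusted p = 0.017). Rpl22l1, whose messenger Rpl22 is known to repress, had 0.09 and -0.28 in the same comparisons. Rpl22l1 was called higher in WT Ki67+ than Ki67- microglia at 12 months (1.13, adjusted p = 0.00499), at 9.75, 9.55, 9.46 and 10.26 against 8.68, 8.62 and 8.59. With these near-identical Ki67- libraries averaged, Rpl22l1 was not called. Rpl3 (0.78, adjusted p = 0.0388, and 0.98, adjusted p = 0.00962) and Rpl39 (1.44, adjusted p = 0.00387, and 1.34, adjusted p = 0.00659) rose in APP/PS1. Rpl10, for which Rpl10l is named, was called in neither sort over that interval. Rpl3l, known from heart and skeletal muscle, and Rpl10l and Rpl39l, known from testis, stayed below the filter, between 5.92 and 7.14 in every library.

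**Figure D4:**
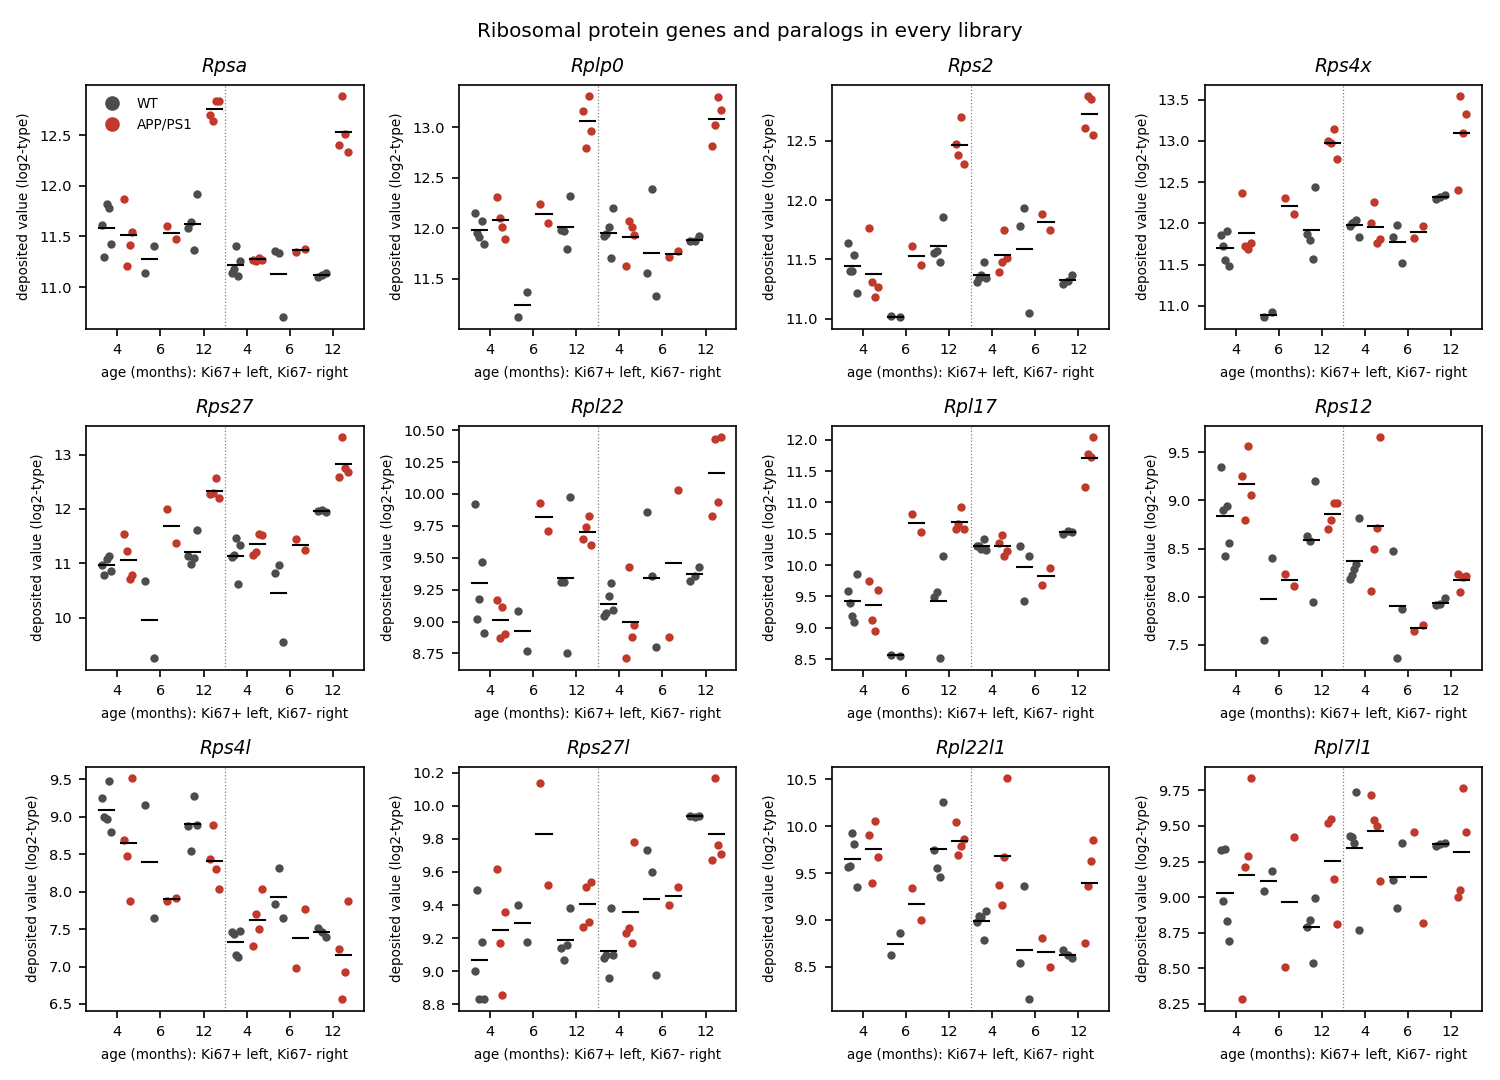
Deposited values (y axis, log2-type scale) of Rpsa, Rplp0, Rps2, Rps4x, Rps27, Rpl22, Rpl17 and Rps12 and of the paralogs Rps4l, Rps27l, Rpl22l1 and Rpl7l1 in every library, by age in months with Ki67+ on the left and Ki67- on the right of each panel (x axis). Points are libraries (grey WT, red APP/PS1), and lines are group means. Rpsa stands at 12.33 or above in the 8 APP/PS1 libraries of 12 months and at 11.92 or below in all others, and Rps4l is higher in Ki67+ than in Ki67- libraries of WT at 4 months.

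Other messengers with a TOP tract are translated under the same control, and they were examined as a list of 20 genes that includes the ribosomal proteins Fau and Rack1, which the symbols miss. At 12 months 9 of 20 were called higher in APP/PS1 Ki67+ and 8 of 20 in APP/PS1 Ki67- microglia, with 0 lower and medians of 0.6 and 0.56. Of all genes 4.43% and 8.71% were called higher. The WT Ki67- side at 12 months is the group of near-identical libraries, which were not averaged for this list. From 4 to 12 months in APP/PS1 8 and 7 of 20 were called higher and 0 lower, with medians of 0.62 and 0.74, against 2.8% and 2.6% of all genes called higher. In WT over the same interval 0 and 1 were called higher, near the shares of all genes (0.496% and 5.61%). Fau, the fusion precursor of a 40S protein, was higher in APP/PS1 by 1.2 (adjusted p = 0.00257) in Ki67+ and 1.19 (adjusted p = 0.00226) in Ki67- microglia at 12 months. Among translation factors on the list, Eef1a1, which delivers aminoacyl-tRNA, was higher by 0.85 (adjusted p = 0.0319) and 1.17 (adjusted p = 0.00386), and Eef2, which moves the ribosome along the messenger, by 0.87 (adjusted p = 0.00429) and 0.6 (adjusted p = 0.0376). Npm1, a nucleolar chaperone of ribosome assembly, was higher by 0.87 (adjusted p = 0.0122) and 1.18 (adjusted p = 0.00108).

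Lists of related processes were counted in the comparisons of genotype at 12 months, where 4.43% of all genes were called higher in Ki67+ and 8.71% in Ki67- microglia. The near-identical WT Ki67- libraries were not averaged for these lists either. Of 75 genes of ribosome assembly, 2 were called higher and 2 lower in APP/PS1 Ki67+ and 8 higher and 2 lower in Ki67- microglia at 12 months. Of 35 initiation factors, 2 and 3 were called higher and 0 and 2 lower, with medians of 0.01 and 0.02. Of 78 mitochondrial ribosomal protein genes, 1 and 5 were called higher and 1 and 3 lower, with medians of 0.05 and -0.05. The 14 genes of TOP control, such as the mTOR activator Rheb (-0.73, adjusted p = 0.0298, in Ki67+), had 1 called lower in Ki67+ and 1 higher in Ki67- microglia. Of 9 elongation and release factors, which overlap with the TOP list, 3 were called higher and 1 lower in each sort, the lower ones being the release factors Etf1 in Ki67+ (-0.92, adjusted p = 0.0201) and Gspt1 in Ki67- microglia (-1.46, adjusted p = 0.000236). Nuclear genes of oxidative phosphorylation had 10 of 77 called higher and 1 lower in Ki67+ (median 0.18), and 16 and 1 in Ki67- microglia (median 0.32). From 4 to 12 months in APP/PS1 Ki67- microglia 14 of these 77 were called higher, against 2.6% of all genes. Uqcrh, of complex III, was higher by 1.31 (adjusted p = 0.00137) and 1.02 (adjusted p = 0.00783).

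**Figure D5:**
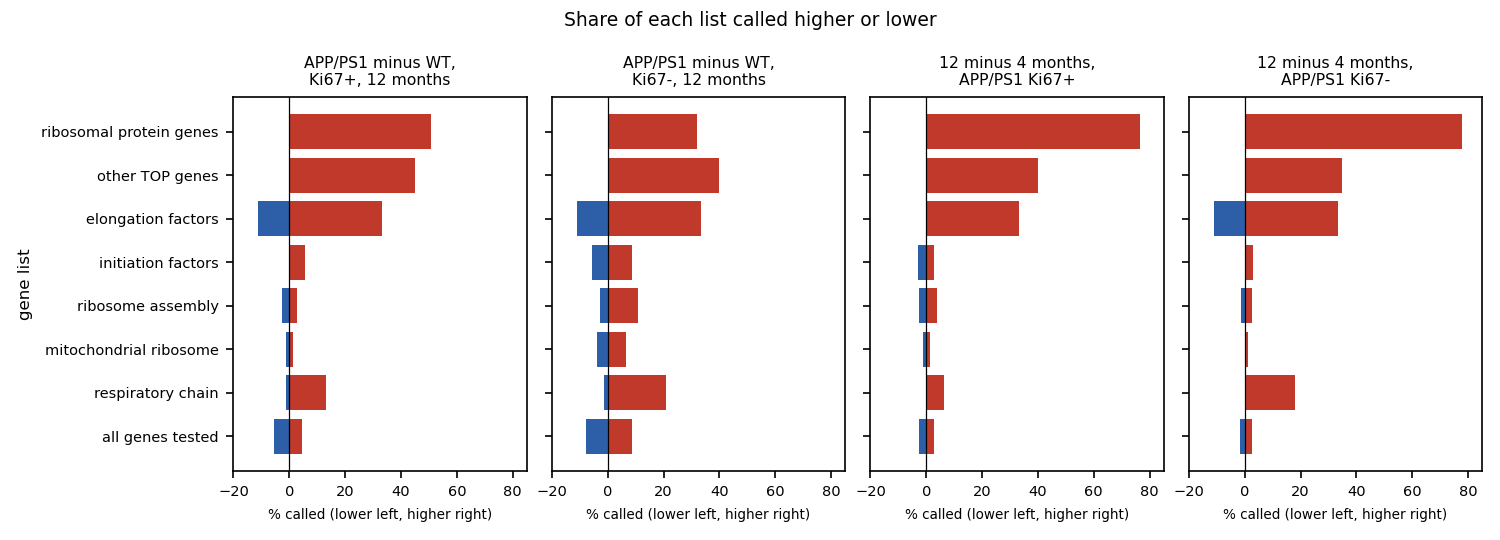
Percent of the tested genes of each list (y axis) called higher (right, red) or lower (left, blue) on the x axis, in APP/PS1 minus WT at 12 months and in 12 minus 4 months of APP/PS1, in Ki67+ and Ki67- microglia. In Ki67+ microglia at 12 months the ribosomal protein genes (41 of 81) and the other TOP messengers (9 of 20) have the highest shares called higher of the lists drawn.

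The annotated transcript starts were read for the TOP tract, since other TOP messengers were also called higher. A tract was counted at a position that held a C followed by at least 4 further C or T bases on the transcribed strand. The bases before it were not considered, so a longer run that began upstream was counted too. RefSeq promoters of GRCm38.p6 held 64 of the 85 genes, and 21 had no entry. The annotated start itself was such a position in 14 of 64 genes (21.9%), against 813 of the 27025 genes of the promoter table (3.01%). A gene with several promoters counted if any of them held the tract. A position within 5 bases of the start held a tract in 30 of 64 (46.9%), against 5718 genes (21.2%). Of the 58 genes outside the paralogs 28 had one within 5 bases (48.3%), and of 6 paralogs 2 (33.3%). The 28 include the processed pseudogene Rpl32l, which has a run of 10 pyrimidines at the start. Annotated starts can differ from the starts used in microglia, so a missing tract says only that these letters are not at this position.

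The windows below reach 15 bases to either side of the annotated start, in 5′ to 3′ direction of the gene, with the pyrimidine run in capitals. They show genes that rose from 4 to 12 months in at least 1 APP/PS1 sort and have a run at or near the start (Rps27, Rps6, Rpl13a, Rpl27a, Rpl35 and Rplp2), genes that rose and have none there (Rpsa and Rplp0), and the paralogs Rpl22l1, Rps27l and Rpl7l1.
Rps27, chr3:90213634-90213663, minus strand: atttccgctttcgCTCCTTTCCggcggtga
Rps6, chr4:86857353-86857382, minus strand: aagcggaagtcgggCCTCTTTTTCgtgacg
Rpl13a, chr7:45128731-45128760, minus strand: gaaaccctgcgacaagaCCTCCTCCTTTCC
Rpl27a, chr7:109519180-109519209, plus strand: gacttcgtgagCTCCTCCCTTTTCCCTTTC
Rpl35, chr2:39005117-39005146, minus strand: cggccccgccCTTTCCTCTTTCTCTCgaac
Rplp2, chr7:141447636-141447665, plus strand: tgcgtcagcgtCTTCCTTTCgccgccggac
Rpsa, chr9:120127751-120127780, plus strand: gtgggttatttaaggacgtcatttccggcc
Rplp0, chr5:115559452-115559481, plus strand: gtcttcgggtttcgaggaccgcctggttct
Rpl22l1, chr3:28805493-28805522, plus strand: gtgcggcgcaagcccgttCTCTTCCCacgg
Rps27l, chr9:66946071-66946100, plus strand: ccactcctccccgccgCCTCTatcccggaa
Rpl7l1, chr17:46782642-46782671, minus strand: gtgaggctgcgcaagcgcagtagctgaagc

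Rpsa and Rplp0 were among the genes with the lowest p in both sorts at 12 months, and neither window holds a tract. The paralog Rpl22l1, which was not called in those comparisons, has a run of 8 pyrimidines. Rps27 and Rps27l differ in the length of the run, with 9 and 5 pyrimidines, and Rpl7l1 has none in this window. Another annotated start of Rps27l has none either. The 85 genes lie on 19 chromosomes, with 4 on X (GENCODE M21, GRCm38).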

How the data were processed

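Read 1 of each library was quantified by the authors with kallisto 0.43.1 on GRCm38 after demultiplexing with bcl2fastq 2.20 (versions per the submitters' processing notes). The deposited values, recorded here as a score, are gene values that the authors normalised with DESeq2, put on a log2-type scale and cleared of 10 surrogate variables. They are not counts, and depth per library is unknown.

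All 42 libraries were assigned to 12 groups from the labels, with 0 columns unmatched. Group means were fitted with limma 3.58.1 (R 4.3.3) to the 14910 genes whose mean reached 7 in any group, with no pseudocount. As 10 directions had been removed, 20 of the 30 residual degrees of freedom were used (prior 6.94). In each of 29 comparisons Benjamini-Hochberg adjustment covered all genes tested (FDR 0.05). Intervals are standard errors of the fitted difference.

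The ribosomal protein genes, the lists and the tests were chosen with earlier results of these data known. Genes named are up to 6 per direction with the lowest p in a comparison, the stalk genes, Rpsa, Rps6, Rps27a, Rpl10, Rps4x and the paralog pairs in every comparison, those with extreme levels or spread, up to 3 per direction of each related list, and Mki67. Others, among them Rps12, Rps27l in WT and the genes set apart by their correlation, were chosen after their values were seen. Positions came from GENCODE M21 and sequences from RefSeq (GRCm38.p6). Figures were drawn with Python 3.11.15 and matplotlib 3.10.9. The fit was also run on simulated data, and the outcome is not given here. The simulated noise was drawn with the same SD for a gene in every group. That run therefore does not check the fit for unequal spreads or near-identical libraries. Alternatives covered the filter, the libraries fitted, the spent directions, the variance prior, library medians, near-identical libraries and leaving out each library. Histology, flow cytometry and other assays were not analysed here, and the values of some genes are not reported here.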

Additional observations from a re-analysis of the deposited data

Results flagged for a closer look

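In groups of 4 or 5 libraries, 126 sets of values were tested for 1 library standing apart from the others, and 9 were found. Chance alone would give about 1 in 20. Replicate 1 of APP/PS1 Ki67+ microglia at 4 months stood apart in 3 genes, with Rplp1 at 11.95 (others 10.79 to 10.99), Rplp2 at 10.77 (others 9.83 to 9.96) and Rps4x at 12.37 (others 11.69 to 11.76). Replicate 2 of the same group was low in Rpl10, at 10.57 (others 11.11 to 11.17). WT Ki67+ replicate 5 at 4 months had a median over the ribosomal protein genes of 10.26 (others 10.34 to 10.37) and Rps27a at 11.37 (others 10.73 to 10.9). In Ki67- microglia at 4 months, Rps6 was at 10.6 in WT replicate 5 (others 10.9 to 10.98) and Rps27l at 9.78 in APP/PS1 replicate 4 (others 9.17 to 9.26). At 12 months, Rpl7 was at 12.4 in APP/PS1 Ki67+ replicate 3 (others 12.48 to 12.5).

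Effects that differed between groups by a tested interaction were few. Genotype by Ki67 state at 6 months had 3 genes, Rpl10 (2.39), Rpl17 (2.26) and Rpl13a (2.00). Genotype by age from 4 to 12 months had 3 genes in Ki67+ microglia, among them Rpsa (1.21), and 4 in Ki67- microglia, Rpsa (1.36), Rplp0 (1.24), Rps2 (1.23) and Rpl36a (1.25).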

How the results depend on the processing

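No paired analysis was possible because the labels give no replicate numbers shared between groups. Direction was checked for the ribosomal protein genes named by rule, and no called difference of these genes changed direction in any alternative run. Counts below are of ribosomal protein genes called in either direction, and causes were not tested unless given. Except with library medians subtracted, all genes called were not counted in these runs. The counts below therefore cannot be compared with the shares of all genes given above.

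Without counting the removed directions as spent, which raises the residual degrees of freedom, Ki67+ against Ki67- had 24 and 36 in WT at 4 and 12 months and 15, 9 and 10 in APP/PS1 at 4, 6 and 12 months. APP/PS1 against WT had 48 and 65 in Ki67+ at 6 and 12 months and 41 in Ki67- at 12 months. From 4 to 12 months WT had 3 (Ki67+) and 27 (Ki67-), from 4 to 6 months 31 and 1 in WT and 21 and 2 in APP/PS1, and from 6 to 12 months 29 (WT Ki67-), 37 (APP/PS1 Ki67+) and 65 (APP/PS1 Ki67-). The interactions had 26 (genotype by Ki67 state, 6 months), 33 and 26 (genotype by age, Ki67+ and Ki67-).

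Fitted to the ages compared only, Ki67+ against Ki67- had 22 and 34 in WT at 4 and 12 months and 14, 1 and 13 in APP/PS1. APP/PS1 against WT in Ki67+ at 12 months had 64, 4 to 6 months 29 (WT Ki67+) and 16 (APP/PS1 Ki67+), 4 to 12 months 19 (WT Ki67-), and 6 to 12 months 22 (WT Ki67-), 34 and 60 (APP/PS1 Ki67+ and Ki67-). The interactions had 1 and 1 (genotype by Ki67 state, 6 and 12 months), 15 and 17 (genotype by age).

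With all genes tested, or with library medians subtracted, Ki67+ against Ki67- in APP/PS1 at 6 months had 1. Subtraction also gave 7 for WT Ki67+ from 4 to 6 months, 11 for WT Ki67- from 4 to 12 months, and a median of -0.24 for Ki67+ against Ki67- in WT at 4 months. A variance prior with trend and robust options gave 10 for WT Ki67- from 4 to 12 months, 43 for APP/PS1 Ki67- from 6 to 12 months, 8 for genotype by Ki67 state at 6 months and 8 for genotype by age in Ki67-. Near-identical libraries averaged, which leaves fewer libraries, gave 2 for Ki67+ against Ki67- in WT at 12 months, 2 for APP/PS1 against WT in Ki67- at 12 months, and 0 for WT Ki67- from 4 to 12 and 6 to 12 months and for genotype by age in Ki67-.

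Leaving out 1 library gave ranges for Ki67+ against Ki67- of 2 to 9 (APP/PS1, 4 months), 14 to 28 (WT, 6 months) and 0 to 1 (APP/PS1, 6 months), with medians of -0.19 to -0.09 (WT, 4 months), 0.25 to 0.49 (APP/PS1, 6 months) and -0.42 to -0.22 (WT, 12 months). APP/PS1 against WT ranged over 3 to 20 (Ki67+, 6 months), 24 to 53 (Ki67+, 12 months) and 16 to 40 (Ki67-, 12 months). From 4 to 6 months WT Ki67+ had 1 to 18 and APP/PS1 Ki67+ 0 to 12. From 6 to 12 months the ranges were 7 to 35 and 1 to 9 in WT Ki67+ and Ki67-, and 2 to 18 and 1 to 52 in APP/PS1. From 4 to 12 months WT Ki67- had 0 to 3. The interactions ranged over 0 to 11 (genotype by Ki67 state, 6 months), 1 to 7 and 3 to 15 (genotype by age, Ki67+ and Ki67-, the last with medians of 0.47 to 0.79).

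The removal of surrogate variables by the authors shaped the spread within groups, the 6 month groups hold 2 or 3 libraries each, and depth is unknown.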
